A study of Mus musculus with 24 samples.

Results

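The genes described here are antioxidant genes, among them the transcription factor Nrf2, its regulators and some of its targets, together with the metallothioneins. They are not a set driven by Nrf2 alone. They were taken by name from a list of 34 antioxidant, Nrf2 target and metallothionein genes, and each is represented by the probe set of highest mean signal. Of the 34 genes listed, 31 were measured, out of 19505 genes with a named probe set. Prdx5, Prdx6 and G6pdx were not analysed here. Their RNA was followed on whole-transcript Affymetrix arrays in both brain hemispheres of 12 mice, all C57Bl/6j males 8 to 10 weeks old. In 8 of these mice a middle cerebral artery was closed from inside the vessel for 90 min (MCAO, for middle cerebral artery occlusion, a stroke model), and the brain was taken after 30 min of reperfusion, 2 h after the artery was closed. The other 4 mice had sham-control surgery, for which the labels give no further detail, and were handled on the same schedule. After perfusion with cold saline the hemisphere on the operated side (ipsilateral) and the opposite one (contralateral) were separated and measured on 1 array each, 24 in total. A whole hemisphere holds tissue supplied by other arteries as well as the territory of the closed one.

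Nrf2 (gene Nfe2l2) is held low by Keap1, which hands it to a ubiquitin ligase for degradation; oxidants and electrophiles modify cysteines of Keap1, Nrf2 accumulates, and with a small Maf protein it binds antioxidant response elements in front of its target genes. These targets make glutathione, reduce quinones, degrade haem and keep thioredoxin and peroxiredoxins in their reduced form. Metallothioneins are small cysteine-rich proteins that bind zinc and copper and can scavenge oxidants. In the brain Mt1 and Mt2 are made mainly by astrocytes, Mt3 is the form typical of neurons, and Mt1 and Mt2 are induced by zinc, through the metal-responsive factor MTF1, and by glucocorticoids.

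The promoters of 4 members are shown as background: Mt1 and Mt2 as the inducible metallothioneins, and Txnrd1 and Srxn1 as the Nrf2 targets with the smallest p-values between hemispheres. None of them passed the test, and a relation between promoter and signal was not tested. Each sequence runs 5' to 3' from 250 bases before to 30 bases after a transcription start annotated in RefSeq (mouse GRCm38.p6, plus strand), at chr8:94178839-94179118 for Mt1, chr8:94172368-94172647 for Mt2, chr10:82858956-82859235 for Txnrd1 and chr2:152105274-152105553 for Srxn1. Capitals mark the letters of an antioxidant response element core, TGACNNNGC, or of a metal response element core, TGCACNC or TGCGCNC, on either strand.
Mt1: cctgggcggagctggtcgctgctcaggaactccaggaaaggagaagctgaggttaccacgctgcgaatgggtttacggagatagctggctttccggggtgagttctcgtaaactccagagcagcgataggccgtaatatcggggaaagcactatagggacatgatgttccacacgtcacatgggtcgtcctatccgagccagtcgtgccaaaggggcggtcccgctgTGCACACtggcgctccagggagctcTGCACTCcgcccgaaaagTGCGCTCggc
Mt2: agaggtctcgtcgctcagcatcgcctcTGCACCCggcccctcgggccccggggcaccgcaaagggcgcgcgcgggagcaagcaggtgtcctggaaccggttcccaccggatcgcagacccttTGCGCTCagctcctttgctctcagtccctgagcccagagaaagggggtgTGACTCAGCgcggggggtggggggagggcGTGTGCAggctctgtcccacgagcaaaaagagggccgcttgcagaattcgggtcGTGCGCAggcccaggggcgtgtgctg
Txnrd1: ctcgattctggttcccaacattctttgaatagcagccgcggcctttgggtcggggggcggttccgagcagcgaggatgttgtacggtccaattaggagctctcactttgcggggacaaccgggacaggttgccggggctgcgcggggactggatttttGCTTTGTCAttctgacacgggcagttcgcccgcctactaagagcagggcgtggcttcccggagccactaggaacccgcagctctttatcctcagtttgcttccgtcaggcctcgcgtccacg
Srxn1: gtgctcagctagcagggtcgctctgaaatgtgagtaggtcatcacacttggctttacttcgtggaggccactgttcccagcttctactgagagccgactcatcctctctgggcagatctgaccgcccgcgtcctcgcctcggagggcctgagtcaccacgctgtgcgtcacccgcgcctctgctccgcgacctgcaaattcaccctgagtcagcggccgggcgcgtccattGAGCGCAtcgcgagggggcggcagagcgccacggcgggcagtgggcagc
The Mt1 sequence held 3 metal response element cores, and the Mt2 sequence held 4 of them and 1 antioxidant response element core. The Mt1 cores at bases 3 to 9 and 21 to 27 lay after the annotated start, as did the Mt2 core at bases 5 to 11. In the Txnrd1 sequence the capitals are 1 antioxidant response element core, and the other annotated starts of Txnrd1 had neither motif. In Srxn1 they are 1 metal response element core, and an antioxidant response element core lies from base 29 to base 37 after the start, beyond the bases shown. RefSeq windows of 250 bases before to 50 after the start were at hand for 26 of the 31 genes, with 32 windows in all. The antioxidant response element core was found in 7 of these windows (21.9%), those of Nfe2l2, Srxn1, Gclm, Prdx1, Mt2, Txnrd1 and Sod1, against 12.4% of all 32851 mouse windows. A metal response element core was found in 9 of them (28.1%), against 25.7% of all windows, while 4 or more such cores, as in Mt2, were found in 0.517% of all windows. A match describes the letters only.

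Both hemispheres of MCAO mouse 3 and of sham mouse 1 stood apart from the other arrays, with a median correlation across probe sets of 0.33 to 0.551 against 0.981 to 0.989. In these 4 arrays the SD over probe sets was 1.437 to 1.54 against 2.328 to 2.414, and negative control probe sets were brighter. Values below therefore come from the other 20 arrays (7 MCAO and 3 sham mice), and the MCAO side difference of every member is also given for all 24. A gene was taken as above background where its signal passed a background limit, the 95th percentile over negative controls of the same array. Neuron, astrocyte and oligodendrocyte markers measured (5, 5 and 4) were above background on all 20 arrays. All 4 measured choroid plexus and ependyma markers, Ttr included, and 5 of 6 neutrophil and monocyte markers were above it on none. No marker was called in any comparison, and haemoglobin genes were not analysed here. Of the 31 antioxidant genes, 25 were above background on all 20 arrays. Hmox1 was above it on 18, Sod3 on 15 and Gpx3 on 8, and Nqo1, Osgin1 and Nfe2l2 on 0. On the 4 arrays that stood apart most of the 31 genes were under the limit. For most genes, values over all 24 arrays therefore take in differences between signals under it. All signals and differences are on the log2 scale of the deposited values, so that a difference of 1 is a change of 2-fold.

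At 2 h after onset, no antioxidant gene passed the test in any of the 5 comparisons between hemispheres or surgeries. In MCAO mice the ipsilateral hemisphere differed from the contralateral one by -0.31 (Srxn1) to 0.25 (Gpx3), with a median of 0.05 over the 31 genes. Among the 7 MCAO mice used, the side differences of 1 sign were those of Txnrd1, higher on the ipsilateral side in 7 of 7 by 0.24 ± 0.08 (SE), and of Srxn1, which was lower on that side in 7 of 7, at -0.31 ± 0.11. In MCAO mouse 3, whose arrays stood apart, Txnrd1 differed by 0.30 and Srxn1 by 1.53, the latter with the opposite sign. Both genes were under the background limit on both arrays of that mouse, so these are not measured differences. Txnrd1 and Srxn1 also had the smallest p-values of the members, and neither passed adjustment over all 22206 probe sets. How many of all probe sets have 1 sign in 7 of 7 mice was not counted. The counts of mice by sign, here and below, therefore have no background beside them. Mt1 and Mt2 were slightly lower on the ipsilateral side in 6 of 7 MCAO mice each, and the side difference of Hmox1, -0.08 ± 0.12, was smaller than its error. In whole-hemisphere RNA, fewer cells of a type and less RNA per cell cannot be told apart.

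The counts were read against the probe sets as a whole, tested with limma. With Benjamini-Hochberg adjustment, 30 of 22206 probe sets (0.135%) were called between hemispheres of MCAO mice, 28 higher and 2 lower on the ipsilateral side, and 0 of the 31 antioxidant genes were among them. Between hemispheres of sham mice and in the test of whether the side difference depends on surgery, 0% of probe sets were called. MCAO against sham gave 33 calls (0.149%) in the ipsilateral hemisphere and 0% in the contralateral one, again with 0 antioxidant genes. Of the 31 genes, 3, 1, 2, 3 and 0 had an unadjusted p under 0.05 in these comparisons, in the order just given. These were Txnrd1, Gpx3 (both higher) and Srxn1 (lower) between hemispheres of MCAO mice, Nqo1 (lower) between those of sham mice, Txnrd1 and Nqo1 for the dependence on surgery, and Txnrd1, Txnip (both higher) and Srxn1 (lower) between ipsilateral hemispheres. Over all probe sets the share with such a p was 7.1% and 5.49% between hemispheres of MCAO and of sham mice, 5.91% for the dependence on surgery, and 7.48% and 4.59% for MCAO against sham on the ipsilateral and contralateral side. A count of 3 in 31 is thus near what all probe sets gave. The sham side comparison, the dependence on surgery and the 2 comparisons with sham mice use the same 3 sham mice, and the MCAO mice are shared in the same way, so the comparisons are not independent.

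On all 24 arrays the antioxidant genes again gave 0 calls in every comparison. The share of all probe sets called was then 0.0856% and 0% between hemispheres of MCAO and of sham mice, 0% for the dependence on surgery, and 0.0045% and 0% for MCAO against sham on the ipsilateral and contralateral side. An unadjusted p under 0.05 was reached by 0, 4, 2, 0 and 0 antioxidant genes in that order, against 4.13%, 6.26%, 5.12%, 1.01% and 0.365% of all probe sets.

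**Figure D1:**
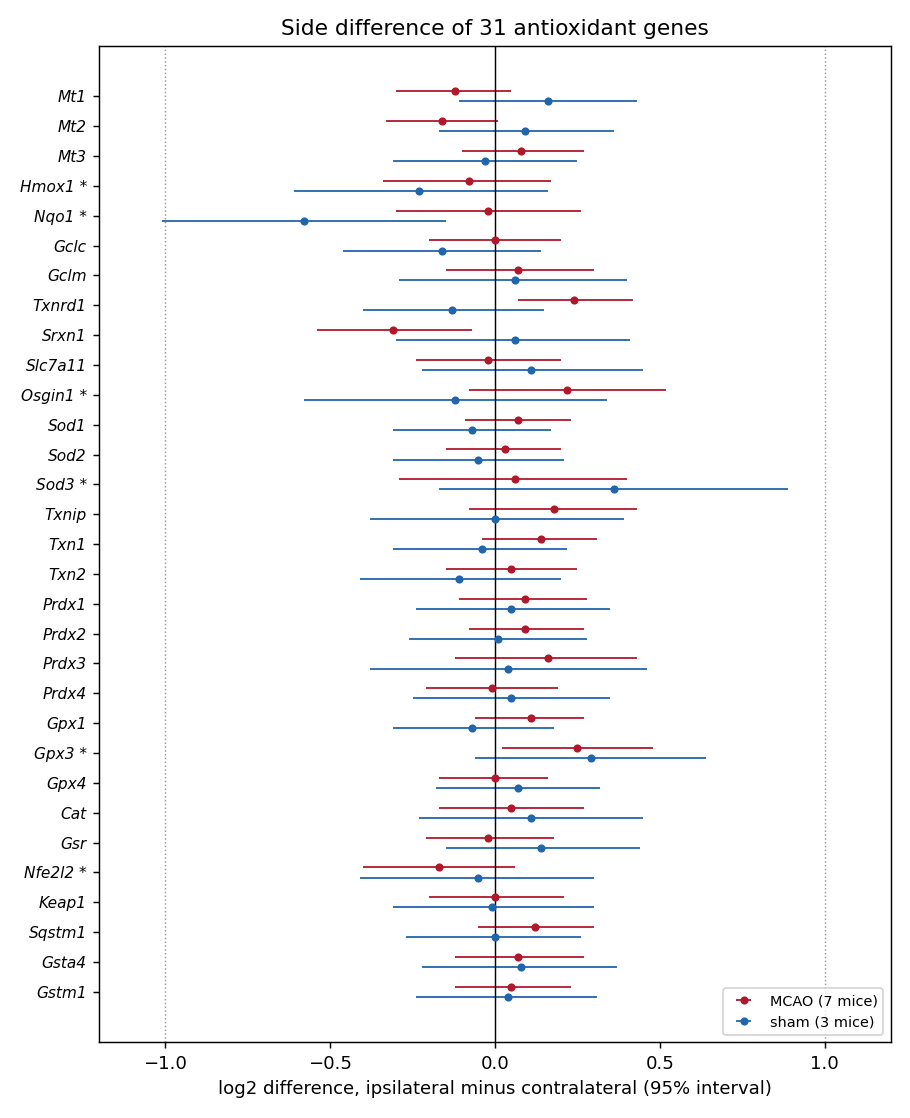
Difference between the ipsilateral and the contralateral hemisphere (log2, points) with its 95% interval (lines) for the 31 antioxidant genes in 7 MCAO mice (red) and 3 sham mice (blue), from limma with mouse as a block; an asterisk marks genes not above background on every one of the 20 arrays, and dotted lines mark a 2-fold change. In MCAO mice all 31 intervals lie inside the dotted lines, and those of Txnrd1, Srxn1 and Gpx3 leave out 0 before adjustment.

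The precision was enough to bound the side differences. For the 25 genes above background on all arrays, the 95% intervals between hemispheres of MCAO mice ran from a fold of 0.69 at the lowest to 1.35 at the highest. Between MCAO and sham ipsilateral hemispheres they ran from 0.68 to 1.53, and between contralateral hemispheres from 0.71 to 1.42. For these 25 genes a 2-fold change of the average probe-set signal of a hemisphere therefore lay outside the unadjusted 95% interval. This was so for each gene in each comparison on the 20 arrays. On all 24 arrays this held for 25 of the 25 between hemispheres of MCAO mice, for 22 between those of sham mice, for 19 in the dependence on surgery, and for 7 and 2 in ipsilateral and contralateral hemispheres between MCAO and sham mice. The intervals bound the average signal over a hemisphere and not the change in any smaller territory of it. How closely the signal follows the RNA in genes not far above the background limit was not tested.

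The metallothioneins Mt1, Mt2 and Mt3 were above background on all 20 arrays and none was called. Mt1 had a signal of 11.02 to 11.42 (median 11.16) in the 7 MCAO ipsilateral hemispheres and 11.09 to 11.49 (median 11.33) in the contralateral ones. In sham mice 2, 3 and 4 it was 11.82, 11.28 and 11.11 on the ipsilateral and 11.44, 11.33 and 10.96 on the contralateral side. The groups overlapped, and the sham arrays spanned a wider range than the MCAO arrays, with sham mouse 2 highest. Between hemispheres of MCAO mice the difference was -0.12 ± 0.08 (adjusted p = 0.83, limma) and between those of sham mice 0.16 ± 0.12. The difference of these side differences was -0.29 ± 0.15 (adjusted p = 0.86, limma).

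Mt2, which lies beside Mt1 and responds to the same stimuli, gave 10.27 to 10.91 (median 10.57) in MCAO ipsilateral and 10.49 to 11.00 (median 10.66) in MCAO contralateral hemispheres. The sham values were 10.88, 10.77 and 10.58 on the ipsilateral and 10.58, 10.85 and 10.53 on the contralateral side, all within the contralateral range of the MCAO mice. The side difference was -0.16 ± 0.08 in MCAO mice (adjusted p = 0.76, limma) and 0.09 ± 0.12 in sham mice. Mt3 was at 9.18 to 9.67 over the 20 arrays and differed between hemispheres by 0.08 ± 0.08 in MCAO mice (0.12 ± 0.16 on 24 arrays) and -0.03 ± 0.13 in sham mice. Against sham mice, ipsilateral hemispheres of MCAO mice differed by -0.22 ± 0.15 for Mt1, -0.18 ± 0.15 for Mt2 and 0.06 ± 0.13 for Mt3, with no call.

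The sham side difference of both genes depended on the arrays that stood apart. In sham mouse 1, Mt1 was at 10.79 on the ipsilateral and 8.59 on the contralateral side, and Mt2 at 9.70 and 7.14, so that its side differences exceeded those of any other mouse. The Mt2 signal of 7.14 was under the background limit of its array. With all 24 arrays the sham side difference was therefore 0.67 ± 0.30 for Mt1 and 0.71 ± 0.32 for Mt2 (adjusted p = 0.71 for both, limma), while in MCAO mice it was 0.04 ± 0.21 and -0.03 ± 0.23.

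**Figure D2:**
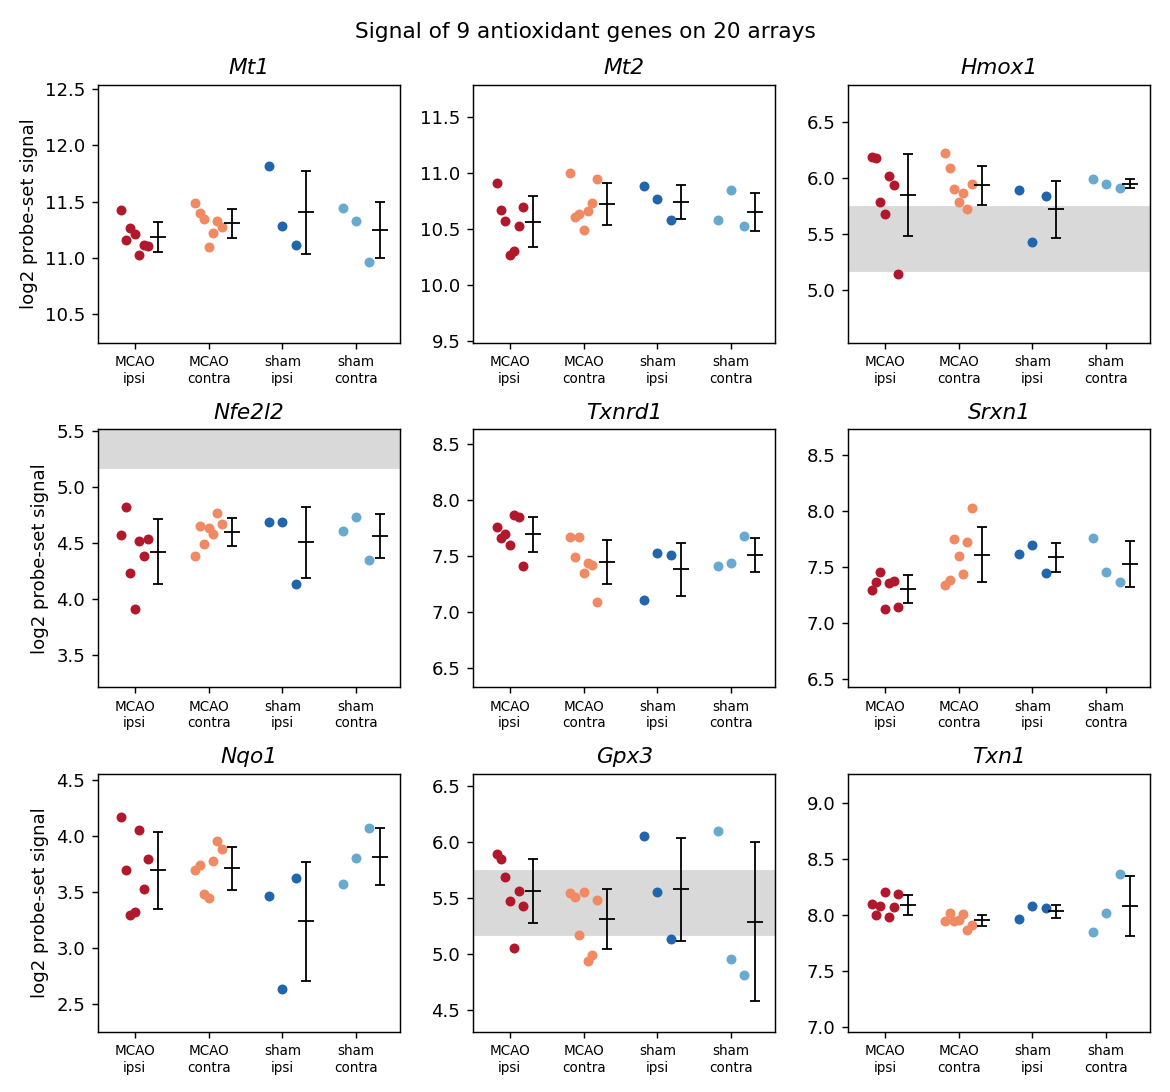
Signal (log2, vertical axis) of 9 antioxidant genes in each of the 20 arrays, by group (MCAO ipsilateral and contralateral, 7 mice each, and sham ipsilateral and contralateral, 3 mice each), with the mean and SD beside the points; the vertical axis does not start at 0 and the grey band spans the background limits of the 20 arrays. The 4 groups overlap for Mt1, Mt2 and Hmox1, all Nfe2l2 points lie under the band, and in MCAO mice Txnrd1 tends to sit higher and Srxn1 lower on the ipsilateral side.

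Of Nrf2 and its regulators, none passed the test. Nfe2l2 itself was under the background limit on all 20 arrays, at 3.91 to 4.82 (median 4.52) and 4.39 to 4.77 (median 4.64) in MCAO ipsilateral and contralateral hemispheres. The sham values were 4.69, 4.69 and 4.14 on the ipsilateral and 4.61, 4.73 and 4.35 on the contralateral side. The groups overlapped, the side difference in MCAO mice was -0.17 ± 0.11 (adjusted p = 0.82, limma) but 0.17 ± 0.25 on all 24 arrays, and a signal under the limit gives only a bound on the level. Keap1, the repressor of Nrf2, had a side difference of 0.00 ± 0.09 and Sqstm1, an autophagy receptor that can sequester Keap1 and is itself an Nrf2 target, one of 0.12 ± 0.08, both above background on all 20 arrays. Over the 24 arrays these were -0.04 ± 0.12 and 0.29 ± 0.16. Both genes were under the background limit on both arrays of MCAO mouse 3, which these values take in.

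Hmox1, haem oxygenase 1, which degrades haem and is induced by haem, hypoxia and oxidants, lay near the background limit. It was at 5.14 to 6.19 (median 5.94) in MCAO ipsilateral and 5.72 to 6.22 (median 5.90) in MCAO contralateral hemispheres. Sham mice 2, 3 and 4 gave 5.89, 5.43 and 5.84 on the ipsilateral and 5.99, 5.95 and 5.91 on the contralateral side. The groups overlapped, with 3 of 7 MCAO mice and 0 of 3 sham mice higher on the ipsilateral side. The side difference in MCAO mice was -0.08 ± 0.12 (adjusted p = 0.94, limma), with an unadjusted 95% interval from a fold of 0.79 to 1.12. It took in MCAO mouse 8, at -0.81, whose ipsilateral signal of 5.14 was under the background limit. The other MCAO mice were at -0.11 to 0.22. Against sham mice, ipsilateral hemispheres of MCAO mice differed by 0.13 ± 0.20. Over the 24 arrays these differences were -0.06 ± 0.13 and 0.39 ± 0.28, with no call.

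Txnrd1, the cytosolic thioredoxin reductase that passes electrons from NADPH to thioredoxin, had the smallest p-value of the members between hemispheres of MCAO mice. Its signal was 7.41 to 7.87 (median 7.70) in the ipsilateral and 7.09 to 7.67 (median 7.44) in the contralateral hemispheres of these mice. In sham mice it was 7.11, 7.53 and 7.51 on the ipsilateral and 7.41, 7.44 and 7.68 on the contralateral side. The groups overlapped, but within each of the 7 MCAO mice the ipsilateral value was the higher one, by 0.03 to 0.43, as in 1 of 3 sham mice.

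The fitted side difference of Txnrd1 was 0.24 ± 0.08 in MCAO mice, a fold of 1.18 (adjusted p = 0.51, limma). In sham mice it was -0.13 ± 0.13, and the dependence on surgery was 0.37 ± 0.15 (adjusted p = 0.78). Ipsilateral hemispheres of MCAO mice were 0.31 ± 0.14 above those of sham mice (adjusted p = 0.65, limma), and contralateral ones differed by -0.06 ± 0.14. Sham mouse 2 had the lowest sham ipsilateral value, and the comparisons with sham mice depended on which mice were used. Over the alternatives described below, the ipsilateral difference from sham ranged from 0.17 to 0.89. The sham side difference ranged from -0.42 to -0.04 and the dependence on surgery from 0.28 to 0.67. Including all 24 arrays, the side difference in MCAO mice was 0.25 ± 0.14 (adjusted p = 0.94). The dependence on surgery was then 0.67 ± 0.24 (adjusted p = 0.89, limma), and sham mouse 1, at 2.92 and 4.20, was far below every other sham value and under the background limit.

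Srxn1, sulfiredoxin, which repairs overoxidised peroxiredoxins, pointed the other way. It was at 7.13 to 7.46 (median 7.36) in MCAO ipsilateral and 7.34 to 8.03 (median 7.60) in MCAO contralateral hemispheres. Sham values were 7.62, 7.70 and 7.45 on the ipsilateral and 7.76, 7.46 and 7.37 on the contralateral side. The ipsilateral range of the MCAO mice met only the lowest of the sham ipsilateral values, and within each of the 7 MCAO mice the ipsilateral side was lower, by 0.03 to 0.88.

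The fitted side difference of Srxn1 was -0.31 ± 0.11 in MCAO mice, a fold of 0.81 (adjusted p = 0.54, limma), and 0.06 ± 0.16 in sham mice. The dependence on surgery was -0.36 ± 0.20 (adjusted p = 0.86), and MCAO against sham gave -0.28 ± 0.12 on the ipsilateral side (adjusted p = 0.64) and 0.08 ± 0.16 on the contralateral side. With the 4 arrays included, the side difference in MCAO mice was -0.08 ± 0.19, so its size rested on leaving out MCAO mouse 3, at 1.53. The Srxn1 signals of that mouse were under the background limit on both sides. Txnrd1 and Srxn1, both Nrf2 targets, thus had side differences of opposite sign in the same 7 mice, and neither passed adjustment.

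Nqo1, the quinone reductase often used to read out Nrf2 activity, was under the background limit on all 20 arrays. Its values were 3.29 to 4.17 (median 3.69) and 3.44 to 3.95 (median 3.74) in MCAO ipsilateral and contralateral hemispheres. In sham mice they were 3.46, 2.63 and 3.62 on the ipsilateral and 3.57, 3.80 and 4.07 on the contralateral side, with sham mouse 3 lowest. The side difference was -0.02 ± 0.13 in MCAO (-0.03 ± 0.14 on 24 arrays) and -0.58 ± 0.20 in sham mice (adjusted p = 0.79, limma), and the dependence on surgery 0.56 ± 0.24 (adjusted p = 0.80). Osgin1, an oxidative stress-induced growth inhibitor, was also under the limit on every array, and its difference in MCAO mice, 0.22 ± 0.14, came from signals under it and was -0.02 ± 0.26 on 24 arrays.

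Genes of glutathione supply had side differences of at most 0.07 in MCAO mice. Gclc and Gclm, the catalytic and modifier subunits of the enzyme that limits glutathione synthesis, had side differences of 0.00 ± 0.09 and 0.07 ± 0.10 in MCAO mice. Slc7a11, the cystine transporter that feeds this synthesis, differed by -0.02 ± 0.10, and Gsr, which reduces oxidised glutathione, by -0.02 ± 0.09. None of these 4 had an unadjusted p under 0.05 in any comparison on the 20 arrays. On all 24 arrays the differences of Gclc, Gclm, Slc7a11 and Gsr were -0.13 ± 0.19, 0.01 ± 0.13, 0.01 ± 0.15 and 0.02 ± 0.11. The glutathione transferases Gsta4 and Gstm1, which conjugate glutathione to lipid aldehydes and other electrophiles, differed by 0.07 ± 0.09 and 0.05 ± 0.08 (0.07 ± 0.11 and 0.18 ± 0.19 on 24 arrays).

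The enzymes that remove superoxide and hydrogen peroxide gave no call. Sod1, Sod2 and Sod3, the cytosolic, mitochondrial and extracellular superoxide dismutases, differed between hemispheres of MCAO mice by 0.07 ± 0.07, 0.03 ± 0.08 and 0.06 ± 0.16. Catalase (Cat) differed by 0.05 ± 0.10. Gpx1, the main cytosolic glutathione peroxidase, was higher on the ipsilateral side in 6 of 7 MCAO mice and 0 of 3 sham mice, by 0.11 ± 0.07 in the MCAO mice, and Gpx4, which reduces lipid hydroperoxides and guards against ferroptosis, differed by 0.00 ± 0.08. With all 24 arrays the differences of Sod1, Sod2, Sod3 and Cat were 0.22 ± 0.19, 0.14 ± 0.15, 0.05 ± 0.22 and 0.13 ± 0.13, and those of Gpx1 and Gpx4 0.22 ± 0.17 and 0.15 ± 0.14. None of these passed the test.

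Gpx3, the secreted glutathione peroxidase of plasma, was above background on 8 of 20 arrays. It was at 5.05 to 5.89 (median 5.56) in MCAO ipsilateral and 4.94 to 5.55 (median 5.48) in MCAO contralateral hemispheres, and in sham mice at 6.05, 5.55 and 5.13 on the ipsilateral and 6.10, 4.95 and 4.81 on the contralateral side. The groups overlapped, and sham mouse 2 was the highest on both sides. The side difference was about as large in sham mice (0.29 ± 0.16) as in MCAO mice (0.25 ± 0.11, adjusted p = 0.66, limma), with a dependence on surgery of -0.04 ± 0.19. With the arrays that stood apart, the MCAO side difference was 0.08 ± 0.17.

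Among the thioredoxins, Txn1, the cytosolic form, was at 7.98 to 8.21 (median 8.08) in MCAO ipsilateral and 7.87 to 8.02 (median 7.95) in MCAO contralateral hemispheres. Sham values were 7.97, 8.08 and 8.06 on the ipsilateral and 7.85, 8.02 and 8.37 on the contralateral side. The MCAO hemispheres of the 2 sides overlapped only slightly, 5 of 7 mice were higher on the ipsilateral side, and the difference was 0.14 ± 0.08 (adjusted p = 0.82, limma). Txn2, the mitochondrial form, differed by 0.05 ± 0.09. Txnip, which binds and inhibits thioredoxin and follows glucose supply, differed by 0.18 ± 0.12 between hemispheres of MCAO mice, with 5 of 7 mice higher on the ipsilateral side. The differences of Txn1, Txn2 and Txnip were 0.18 ± 0.17, 0.14 ± 0.17 and 0.15 ± 0.15 on 24 arrays. Against sham mice Txnip was 0.27 ± 0.12 higher in ipsilateral hemispheres (adjusted p = 0.64), and 0.69 ± 0.57 on 24 arrays.

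Peroxiredoxins are abundant thiol peroxidases that thioredoxin reduces and sulfiredoxin repairs. Prdx1 and Prdx2, the cytosolic forms, differed between hemispheres of MCAO mice by 0.09 ± 0.09 and 0.09 ± 0.08, each higher on the ipsilateral side in 6 of 7 mice. Prdx3, in mitochondria, differed by 0.16 ± 0.13, and Prdx4, in the secretory pathway, by -0.01 ± 0.09. With all 24 arrays Prdx1 to Prdx4 differed by 0.26 ± 0.16, 0.15 ± 0.17, -0.01 ± 0.17 and -0.21 ± 0.18. Against sham mice the 4 differed by 0.10 to 0.16 in the ipsilateral hemisphere, and none had an unadjusted p under 0.05. The sign rested on sham mouse 2, without which Prdx1 to Prdx4 differed by -0.04, -0.05, -0.01 and -0.12. On 24 arrays the ipsilateral differences were 0.67 ± 0.90, 0.52 ± 0.67, 0.30 ± 0.74 and -0.13 ± 0.62.

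**Figure D3:**
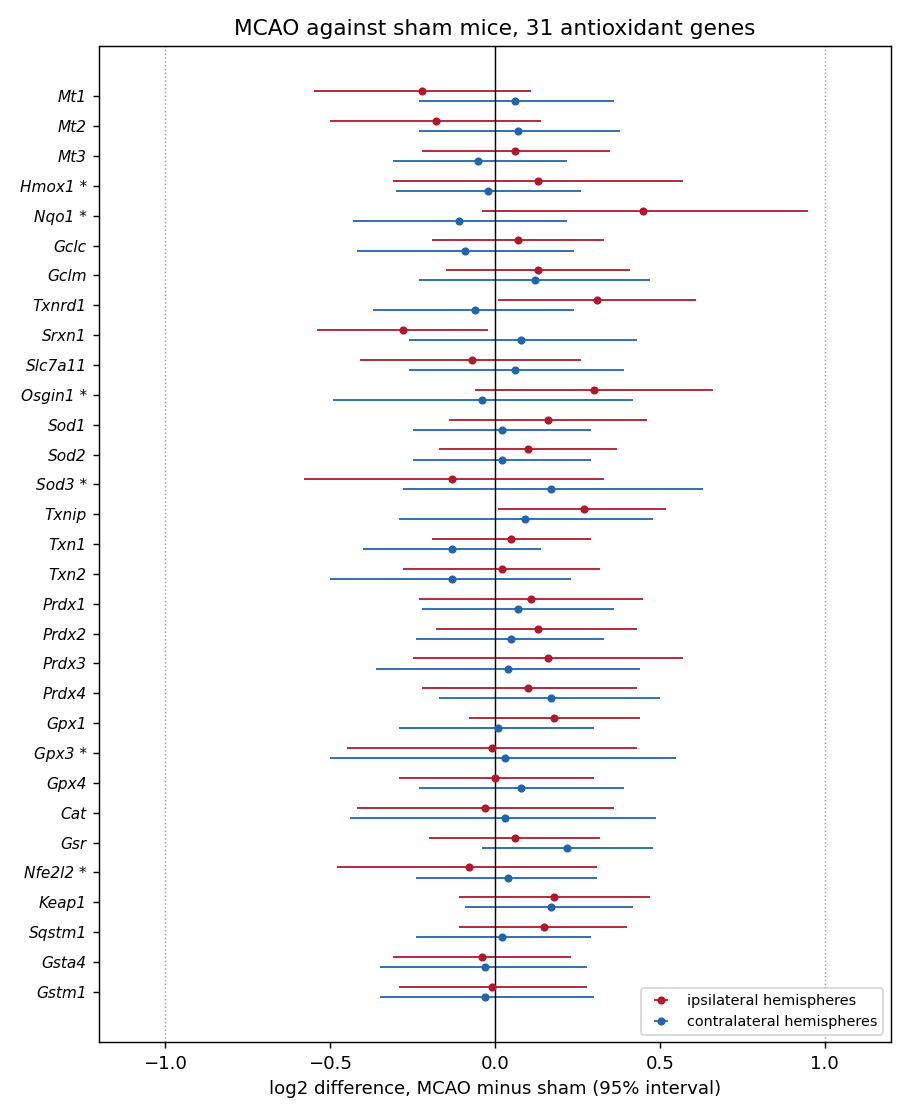
Difference between MCAO and sham mice (log2, points) with its 95% interval (lines) for the 31 antioxidant genes in the ipsilateral (red) and contralateral (blue) hemispheres, 7 MCAO against 3 sham mice, from limma; an asterisk marks genes not above background on every one of the 20 arrays, and dotted lines mark a 2-fold change. All intervals lie inside the dotted lines on both sides, and of the genes above background on every array Txnrd1 was highest (0.31) and Srxn1 lowest (-0.28) in the ipsilateral hemisphere.

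Compared with sham mice the antioxidant genes differed by -0.28 to 0.45 in ipsilateral and by -0.13 to 0.22 in contralateral hemispheres, with medians of 0.07 and 0.03. The value of 0.45 is that of Nqo1, under the background limit on every array, and the highest of the 25 genes above background was 0.31 (Txnrd1). In the 9014 bright probe sets, whose mean signal exceeded the mean background limit of 5.49, the medians were 0.04 and 0.01. Differences above 0 were found for 21 of the 31 genes in each hemisphere, against 60.6% and 54.8% of these probe sets. The mean signal of 5 endothelial markers, 3 of them above background on all 20 arrays, was 6.45 to 6.68 in MCAO and 6.10 to 6.38 in sham ipsilateral hemispheres. In contralateral hemispheres it was much the same, 6.33 to 6.71 in MCAO and 6.10 to 6.34 in sham mice. It was the only marker list whose ipsilateral ranges did not overlap between MCAO and sham mice, and those of every other list did. How often a list of genes would separate in this way was not counted. The part of these markers in the differences was not tested. On all 24 arrays the medians of the antioxidant genes were 0.31 and 0.37, beside 0.28 and 0.29 in the bright probe sets. Between hemispheres of MCAO and of sham mice, 20 and 17 of the 31 genes were above 0, against 51.9% and 44.5% of the bright probe sets.

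Side differences of single mice lay in a narrow range outside the arrays that stood apart. Over the 31 genes the side differences in the 10 mice used ranged from -1.17 to 0.92, and 1 of them passed 1 log2 unit, that of Nqo1 in sham mouse 3. MCAO mouse 2 had the highest median, 0.17, with 26 of 31 genes higher on the ipsilateral side, and MCAO mouse 6 had 11 of 31. The share of all probe sets above 0 was not counted mouse by mouse, so these counts have no background beside them. The mice that stood apart gave a different picture, with 14 of 31 genes past 1 log2 unit in MCAO mouse 3 and 16 of 31 in sham mouse 1, in both directions. Most of the 31 genes were under the background limit on both arrays of these mice, so most of these are not measured differences. The share of all probe sets past 1 log2 unit in these mice was not counted.

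**Figure D4:**
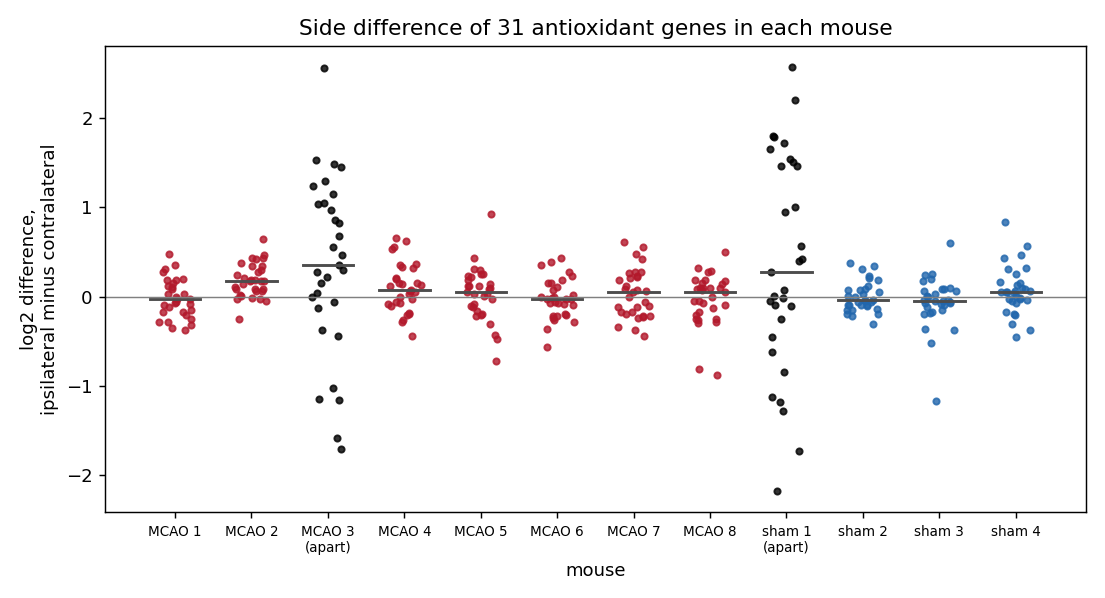
Side difference (log2 signal, ipsilateral minus contralateral, vertical axis) of each of the 31 antioxidant genes in each of the 12 mice, with the median as a bar; MCAO mice are red, sham mice blue and the mice whose arrays stood apart black. The 10 coloured mice lie between -1.17 and 0.92, while MCAO mouse 3 and sham mouse 1 span -1.71 to 2.56 and -2.18 to 2.57. Most signals of the black mice were under the background limit.

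Whether members varied together was examined for 6 pairs of side differences over the 7 MCAO mice. The side differences of Mt1 and Mt2 had a Pearson r of -0.09 (exact permutation p = 0.836) and a Spearman rho of -0.18, with r = 0.01 without the 2 mice farthest from the median. Over all 8 MCAO mice their r was 0.9 (exact permutation p = 0.0713, adjusted p = 0.186), so this relation rested on MCAO mouse 3. Mt2 and Mt3 had r = 0.84 (exact permutation p = 0.0167, adjusted p = 0.1 over the 6 pairs) and rho = 0.75, with r = 0.59 without the 2 farthest mice and 0.68 over 8 mice. Hmox1 and Srxn1 had r = 0.83 (exact permutation p = 0.0421, adjusted p = 0.126) but a rho of 0.46 (exact permutation p = 0.302), with r = 0.75 without the 2 farthest mice and 0.55 over 8 mice. In MCAO mouse 8, lowest for both genes, the ipsilateral Hmox1 signal was under the background limit. For Gclc with Gclm, Mt1 with Mt3 and Mt1 with Txnip, r was 0.21, 0.37 and -0.27, and none of the 6 pairs passed adjustment. Without the 2 farthest mice these were 0.79, 0.04 and 0.26, and over 8 mice 0.55, 0.52 and -0.31.

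Other genes of the same pathways were taken as 7 lists of 82 genes, of which 79 were measured. Between hemispheres of MCAO mice 0 of the 79 were called in either direction, and 6 had an unadjusted p under 0.05, near the shares over all probe sets of 0.135% and 7.1%. Mtf1, the zinc sensor that drives Mt1 and Mt2, differed by 0.24 ± 0.08 (0.38 ± 0.14 on 24 arrays, adjusted p = 0.48 on 20, limma), and Slc30a1, a zinc exporter under its control, by -0.19 ± 0.10. Blvra, which reduces the biliverdin that haem oxygenase makes, differed by 0.30 ± 0.11 (0.19 ± 0.20 on 24 arrays, adjusted p = 0.58 on 20), and Tfrc, the transferrin receptor, by 0.18. In sham mice Blvra differed by 0.36 ± 0.17, and by -0.13 ± 0.28 on all 24 arrays.

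Nqo2, a quinone reductase related to Nqo1, differed by 0.45 ± 0.12 (adjusted p = 0.37, limma) but was above background on 4 of 20 arrays. Taldo1, of the pentose phosphate pathway, differed by 0.22 ± 0.10 (adjusted p = 0.70). Of the glutathione list, Mgst3, a microsomal glutathione transferase, differed by 0.14 and Abcc4, an efflux pump, by -0.18. Park7 (DJ-1), an oxidant-sensitive protein reported to stabilise Nrf2, differed by 0.09. Txnrd3, a thioredoxin reductase, and Msrb2, which reduces methionine sulfoxide in mitochondria, differed by -0.38 and -0.33, and the oxidant sources Ncf1 and Nos2 by 0.18 and 0.21, and none passed the test. Txnrd3, Msrb2 and Nos2 were above background on 0 of 20 arrays and Ncf1 on 9, so these differences are between signals at or under the limit.

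In the comparison of MCAO with sham ipsilateral hemispheres 1 of the 79 genes was called, against 33 of 22206 probe sets (0.149%). An unadjusted p under 0.05 (limma) was reached by 5 of the 79, against 7.48% of all probe sets. Maff, a small Maf protein that pairs with Nrf2 and is itself induced by stress, was 0.86 ± 0.15 higher in MCAO mice (adjusted p = 0.046, limma). It was also 0.78 ± 0.18 higher in contralateral hemispheres (adjusted p = 0.99), and between hemispheres of MCAO mice it differed by 0.24 ± 0.12. Its signal was above background on 0 of 20 arrays, so these are differences between signals under the limit and not a measured fold of the RNA. On all 24 arrays the ipsilateral difference was 0.87 ± 0.28 (adjusted p = 0.97). No other of the 79 genes was called in any of the 5 comparisons.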

How the data were processed

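The authors deposited log2 signals per probe set, and the submitters' processing notes name Affymetrix Expression Console. Its version, the background correction and normalization, and the array's genome build were not given in the sources used here. That the scale is log2 was inferred from the values. Of 29129 probe sets, 6923 array controls were left out and 22206 were tested with no filter on signal. Gene names came from the platform annotation, with 19572 probe sets naming 1 gene and 2634 unnamed here, and all 19505 genes were found in the RefSeq table. A gene with several probe sets was represented by the one of highest mean.

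Side comparisons used limma 3.58.1 (lmFit, eBayes) in R 4.3.3 on 20 arrays with mouse as a fixed block, because the labels pair both hemispheres of each animal. The deviations of these paired arrays correlated at 0.11 to 0.31, against a median of -0.04 for different mice. MCAO was compared with sham on the arrays of 1 side without a block. Benjamini-Hochberg adjustment ran over all 22206 probe sets, at a threshold of 0.05. Errors are standard errors of the fit, and the number of arrays limits the precision. Equal numbers in MCAO and sham mice do not pair animals.

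The members, lists, named genes and the choice to leave out 4 arrays were made with earlier results of these data known. Values are given in full for Mt1, Mt2, Hmox1, any called member and up to 8 members with the smallest p in the MCAO side comparison or the dependence on surgery. Of the other lists, genes called and the 2 with the smallest p per list are named. Alternatives were all 24 arrays, with and without array weights, other treatments of the mouse block, other eBayes settings, a filter on dim probe sets, other scalings and leaving out each mouse. The limma script was tested on simulated data. Promoter sequences came from RefSeq (GRCm38.p6). Figures used matplotlib 3.10.9 in Python 3.11.15.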

Additional observations from a re-analysis of the deposited data

Results flagged for a closer look

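Among 93 groups of 7 MCAO values tested for a single sample far from the others, 3 had one. Chance alone gives about 1 in 20, so 3 in 93 is no more than chance would give. The side difference of Hmox1 in MCAO mouse 8 was -0.81, with the other 6 mice at -0.11 to 0.22, and came from an ipsilateral signal of 5.14, under the background limit, beside 5.95 on the contralateral side. For Gpx1 the side difference in MCAO mouse 2 was 0.38 (9.34 and 8.96) against -0.01 to 0.12 in the others. The Gsr signal in the ipsilateral hemisphere of MCAO mouse 1 was 6.95, against 6.63 to 6.77 in the others.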

How the results depend on the processing

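Under each of the 21 alternatives run, 0 antioxidant genes were called in the comparisons it covered. The other treatments of the block cover only the 3 side comparisons, the fits to MCAO or sham mice alone 1 each, and the filter on dim probe sets 135 of the 155 values. Over them the lowest adjusted p in the side comparison of MCAO mice was 0.16 (Srxn1, eBayes with trend and robust settings, limma). Over the alternatives the MCAO side difference ranged from 0.21 to 0.28 for Txnrd1 (adjusted p 0.18 to 0.94) and from -0.35 to -0.08 for Srxn1 (0.16 to 0.97). On all 24 arrays the median over the genes moved to 0.13 between sham hemispheres, 0.31 between ipsilateral and 0.37 between contralateral hemispheres of MCAO and sham mice, and the Mt1 and Mt2 correlation to 0.9. Each mouse gave 1 array per side. With no replicate block or a random one, the side differences and their MCAO median of 0.05 were therefore fixed in advance. Only errors and p-values could change, and no call changed. Genes under the background limit, and sham results resting on 3 mice, are the least certain.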
